A study of Mus musculus with 6 samples.

Results

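The 10 genes described here encode the transcriptional repression machinery that FOG proteins recruit: 8 subunits of the NuRD complex (Chd4, Mta1, Mta2, Mta3, Hdac1, Hdac2, Mbd3 and Gatad2a) and the C-terminal binding proteins Ctbp1 and Ctbp2. They were chosen by gene symbol for what they encode, by a rule that uses no measured value, although earlier results of these data were known, and all 10 were found, each as 1 row, among the 23748 rows of the expression table. NuRD joins an ATP-driven chromatin remodeller to histone deacetylases, so that one assembly both moves nucleosomes and removes acetyl groups from histones. FOG proteins are co-factors of GATA transcription factors that bind no DNA by themselves; a short motif at their N-terminus recruits NuRD, and a separate short motif recruits CtBP, a co-repressor that resembles a dehydrogenase.

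RNA was measured on Affymetrix arrays in mouse embryonic fibroblasts, primary mixed mesenchymal cells grown out of E14.5 embryos, in 3 wild type samples and 3 samples of the genotype FOG-2 Rb-, a knock-in allele whose FOG-2 (gene Zfpm2) cannot bind the retinoblastoma protein pRb, by the study's title. All cells were growing in serum-containing medium and were harvested before any differentiation, with no other treatment given in the labels. Within a genotype the samples are labelled experiments 1 to 3, with nothing said of separate embryos or cultures, so a p-value here reflects only how far these samples spread, which may be technical variation. Every wild type title carries the number 18 and every FOG-2 Rb- title the number 27, whose meaning is not stated; if it marks an embryo or a line, that and the genotype cannot be told apart. The arrays report RNA per gene; protein, assembly of the complex and its recruitment to FOG-2 were not measured. In such bulk samples, fewer cells of a type and less RNA per cell cannot be told apart.

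The 6 arrays had median log2 values of 5.65 to 5.73, and across genes their values correlated at 0.997 or more among arrays of one genotype and at 0.990 to 0.991 from one genotype to the other. Of the 14 measured fibroblast markers, Col1a1, Col1a2, Fn1 and Vim were the brightest (up to 13.4 on the log2 scale), while 5 markers were lower in FOG-2 Rb- (Dcn 3.41-fold, Lum 2.93-fold, Pdgfra 1.87-fold and Thy1 1.72-fold among them) and 3 were higher. Of 12 mesothelium markers, 8 were higher (Krt18 4.72-fold, Upk3b 2.44-fold, Wt1 2.10-fold) and Msln was lower by 2.35-fold. Of 14 measured proliferation genes, 10 were lower and 0 higher. Over all rows 18% passed the same test (limma, adjusted p under 0.05), 9.44% higher and 8.59% lower. Among rows at or above the median level 31.4% passed.

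Expression of the NuRD and CtBP genes differed little between the genotypes. Gatad2a was the only one of the 10 whose difference passed the test, as a fall of 12.6%, and 0 of 10 rose (limma, adjusted p under 0.05 over all 23748 rows). Of all rows of the table, 18% passed, 9.44% higher and 8.59% lower, so 1 of 10 is no more than the share in the whole table; among rows at or above the median level, where all 10 genes lie, 31.4% passed. The median log2 fold change of the 10 genes was -0.05, against -0.02 over all rows, and the median of its absolute value was 0.08, against 0.10 over all rows and 0.14 over rows at or above the median level. None of the 10 had an absolute log2 fold change over 0.2, a size that 24.5% of all rows exceeded. The 95% intervals of the 10 changes reached no farther than 0.31 from 0 on the log2 scale. For 4 genes, Chd4, Hdac2, Gatad2a and Ctbp2, all arrays of one genotype lay above all of the other, as they did for 35.6% of all rows. In the authors' deposited table, 3 of the 10 (Chd4, Hdac2 and Gatad2a) have an unadjusted p under 0.05, against 28.2% of its rows.

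**Figure D1:**
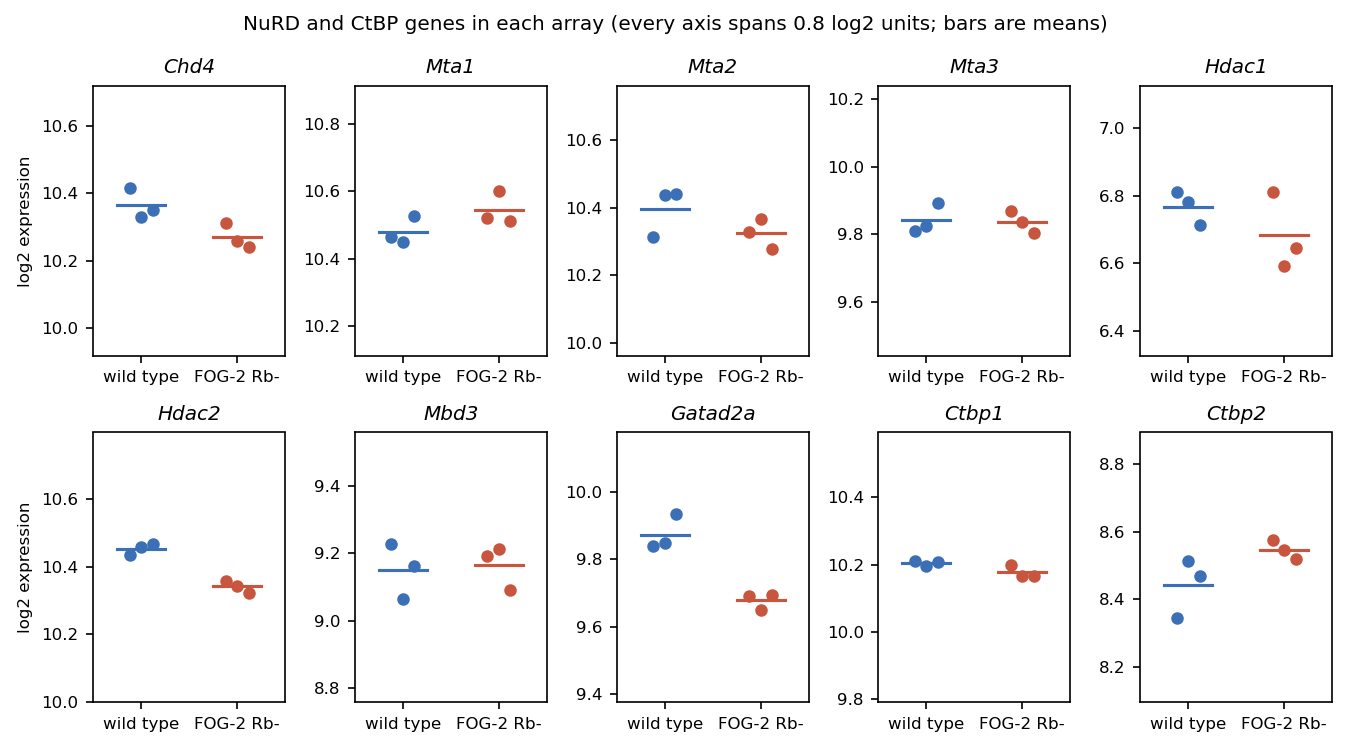
Log2 expression of each of the 10 genes in the 3 wild type (blue) and 3 FOG-2 Rb- (red) arrays, from replicate 1 at the left of each group to replicate 3 at the right; horizontal bars are group means and all panels have the same vertical span. Gatad2a shows the widest gap between the genotypes, with wild type arrays at 9.84 to 9.93 and FOG-2 Rb- arrays at 9.65 to 9.69, while Mta3 and Mbd3 overlap.

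Chd4 encodes the ATPase that drives nucleosome remodelling in NuRD. Its log2 values were 10.41, 10.33 and 10.35 for the wild type arrays, in replicate order, against 10.31, 10.26 and 10.24 for the FOG-2 Rb- arrays. All 3 FOG-2 Rb- arrays lay below the wild type arrays, but the gap between the nearest arrays was 0.02. The log2 fold change of -0.09 (SE 0.05, n = 3 each) did not pass the test (limma, adjusted p = 0.252), with a 95% interval from 13.5% lower to 1.43% higher.

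The histone deacetylases of NuRD are Hdac1 and Hdac2, class I enzymes that remove acetyl groups from histone tails. Hdac2, whose arrays were the most tightly grouped of the 8 NuRD genes, measured 10.44, 10.46 and 10.47 in wild type and 10.36, 10.34 and 10.32 in FOG-2 Rb- arrays, with no overlap. Its log2 fold change of -0.11 (SE 0.04) had an unadjusted p of 0.034 and an adjusted p of 0.128 (limma), with a 95% interval from 13.7% to 0.779% lower. The authors' deposited table gives Hdac2 an unadjusted p of 0.00133 and a ratio of 0.925. The difference passed the threshold with a robust variance prior that followed the expression level (limma adjusted p = 0.00873). It also passed when dim rows were left out (0.0331) and in an ordinary 2-group test (0.0169), and in none of the other alternatives run. Hdac1, its close paralog, measured 6.81, 6.78 and 6.71 in wild type and 6.81, 6.59 and 6.64 in FOG-2 Rb- replicates, and the genotypes overlapped. Its log2 fold change was -0.09 (SE 0.07, limma adjusted p = 0.475; 95% interval from 15.8% lower to 5.54% higher). Hdac1 was the dimmest row of the 10, at the 60.7th percentile of levels in the table, and RefSeq lists a pseudogene name among its synonyms, so its row is uncertain where probes match a copy.

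The metastasis-associated genes Mta1, Mta2 and Mta3 encode alternative scaffold subunits that hold the deacetylases in NuRD. Mta1 measured 10.46, 10.45 and 10.53 in wild type and 10.52, 10.60 and 10.51 in FOG-2 Rb- replicates, with a log2 fold change of 0.06 (limma adjusted p = 0.459). Mta2 measured 10.31, 10.44 and 10.44 in wild type and 10.33, 10.37 and 10.28 in FOG-2 Rb- replicates, with a log2 fold change of -0.07 (limma adjusted p = 0.447). Mta3 measured 9.81, 9.82 and 9.89 in wild type and 9.87, 9.84 and 9.80 in FOG-2 Rb- replicates, and its means of 9.84 and 9.84 differed by a log2 fold change of -0.01 (limma adjusted p = 0.961). The genotypes overlapped for all 3 genes. Their 95% intervals ran from 3.71% lower to 13.5% higher for Mta1, from 13.2% lower to 4.14% higher for Mta2 and from 7.89% lower to 7.79% higher for Mta3.

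Mbd3 and Gatad2a encode the subunits that link the deacetylase core to the remodeller. Mbd3, a methyl-CpG binding domain protein, measured 9.23, 9.06 and 9.16 in wild type and 9.19, 9.21 and 9.09 in FOG-2 Rb- replicates, an overlap over most of the range. Its log2 fold change was 0.02 (SE 0.06, limma adjusted p = 0.904; 95% interval from 8.74% lower to 11.9% higher). Gatad2a, which encodes the GATA zinc finger protein p66 alpha, measured 9.84, 9.85 and 9.93 in wild type and 9.69, 9.65 and 9.69 in FOG-2 Rb- replicates. The lowest wild type array lay 0.14 above the highest FOG-2 Rb- array. Gatad2a fell by 0.19 on the log2 scale (SE 0.05, limma adjusted p = 0.0344), from a mean of 9.87 ± 0.05 to 9.68 ± 0.02 (SD, n = 3 each), with a 95% interval from 19.3% to 5.35% lower. The direction held in each of the 13 alternatives, but the call was lost without any 1 of the 6 arrays (adjusted p = 0.0542 to 0.111), with the replicate number as a block (0.0784) and with arrays centred on their medians (0.0808). In wild type arrays the 14 measured proliferation genes, 10 of them lower in FOG-2 Rb-, had a summed level of 14.29 to 14.31 on the log2 scale. In FOG-2 Rb- arrays it was 13.98 to 13.99, a change in the same direction as that of Gatad2a. The summed level of the 12 mesothelium markers, 9.46 to 9.56 and 10.08 to 10.18, moved the opposite way. Of these markers 8 were higher, most of all Krt18 (4.72-fold), and Msln was lower by 2.35-fold. The part of either list in the Gatad2a difference was not tested.

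Promoter windows from RefSeq (GRCm38.p6, 250 bases before to 50 after a start) were found for 8 of the 10 genes, with 11 windows in all. Those of Gatad2a, the gene that fell, are shown with the upstream one of Chd4 and that of Hdac2, each written 5′ to 3′ on the gene's strand. Chd4 and Hdac2 did not pass, but their arrays did not overlap. The same holds for Ctbp2, whose windows are not shown, nor is the downstream one of Chd4. These windows that are not shown hold NF-Y matches but no GATA match. Capitals mark GATA matches (GATAA) and NF-Y matches (CCAAT), searched on both strands and chosen with the windows at hand; no motif of one factor lies within that of another. The windows lie at chr8:69996335-69996634 and chr8:69974334-69974633 (minus strand) for the 2 starts of Gatad2a, at chr6:125095731-125096030 (plus strand) for the upstream start of Chd4 and at chr10:36974294-36974593 (plus strand) for Hdac2.
Gatad2a, first start: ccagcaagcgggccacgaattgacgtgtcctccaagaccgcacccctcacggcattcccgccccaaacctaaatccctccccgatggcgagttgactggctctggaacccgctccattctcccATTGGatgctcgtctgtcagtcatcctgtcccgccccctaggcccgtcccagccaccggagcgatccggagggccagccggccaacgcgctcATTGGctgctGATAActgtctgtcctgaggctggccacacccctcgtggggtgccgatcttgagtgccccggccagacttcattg
Gatad2a, second start: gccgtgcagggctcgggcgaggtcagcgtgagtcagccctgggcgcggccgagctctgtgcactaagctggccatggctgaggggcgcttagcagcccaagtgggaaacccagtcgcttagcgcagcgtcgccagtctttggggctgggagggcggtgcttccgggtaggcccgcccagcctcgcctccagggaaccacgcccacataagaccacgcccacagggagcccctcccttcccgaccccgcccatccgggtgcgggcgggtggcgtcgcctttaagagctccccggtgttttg
Chd4, upstream start: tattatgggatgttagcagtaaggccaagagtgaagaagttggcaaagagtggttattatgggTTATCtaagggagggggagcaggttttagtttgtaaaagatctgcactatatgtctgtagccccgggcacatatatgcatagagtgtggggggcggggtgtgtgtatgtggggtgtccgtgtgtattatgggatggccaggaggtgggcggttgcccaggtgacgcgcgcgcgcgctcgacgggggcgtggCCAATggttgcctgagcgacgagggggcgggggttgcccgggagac
Hdac2: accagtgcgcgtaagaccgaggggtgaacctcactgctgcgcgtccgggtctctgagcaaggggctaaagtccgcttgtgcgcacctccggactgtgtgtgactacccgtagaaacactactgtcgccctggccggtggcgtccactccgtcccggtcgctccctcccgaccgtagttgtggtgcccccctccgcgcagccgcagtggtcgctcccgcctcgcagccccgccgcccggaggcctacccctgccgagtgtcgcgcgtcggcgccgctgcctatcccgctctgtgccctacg

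The first Gatad2a window holds a GATA match that begins 25 bases before the start and 2 NF-Y matches, 127 and 35 bases before it. The upstream Chd4 window holds a GATA match 187 bases before the start and an NF-Y match just after it, and neither the second Gatad2a window nor that of Hdac2 holds a GATA or NF-Y match. In all, 2 of the 11 windows hold a GATA match and 6 an NF-Y match, while 25.4% and 37.4% of all 32851 windows do; the 2 Chd4 windows overlap and share 1 NF-Y match, which is counted in both. An Sp1 match (GGGCGG, not capitalised) is in 9 of the 11 windows and in 35.7% of all windows. The overlapping Chd4 windows share Sp1 matches too, and both are counted. The 9 windows have a GC content of 57.0% to 81.0%, and a comparison with windows of like GC content was not made. An E2F match (TTTCCCGC, TTTCGCGC, TTTGCCGC or TTTGGCGC) is in 0 of the 11 and in 2.26% of all windows. The windows of these genes had a GC content of 43.7% to 81.0%, against a median of 52.7% over all windows. These letters describe the windows and say nothing on binding.

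CtBP1 and CtBP2 bind a short peptide motif in FOG proteins and other repressors, and bring in histone-modifying enzymes. Ctbp1 measured 10.21, 10.19 and 10.21 in wild type and 10.20, 10.17 and 10.17 in FOG-2 Rb- replicates, an overlap by less than 0.01. Its log2 fold change of -0.03 (SE 0.04, limma adjusted p = 0.728) had a 95% interval from 8.44% lower to 5.18% higher. Ctbp2 measured 8.34, 8.51 and 8.47 in wild type and 8.58, 8.55 and 8.52 in FOG-2 Rb- replicates, so that all 3 FOG-2 Rb- arrays were higher, the nearest by 0.01. Its log2 fold change of 0.11 (SE 0.06) did not pass (limma adjusted p = 0.282; 95% interval from 2.15% lower to 18.4% higher).

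Among the other NuRD subunits, only Chd3 passed the test, as a rise. Of 7 measured, 1 rose, 0 fell and 6 did not pass. This share of 14.3% was no more than the 18% of all rows that passed. It was also below the 31.4% of rows at or above the median level, where all 7 lie. Their median change was -0.04 on the log2 scale. Chd3, which encodes the remodelling ATPase that can take the place of Chd4, measured 9.50, 9.52 and 9.62 in wild type and 9.75, 9.81 and 9.80 in FOG-2 Rb- replicates, without overlap. The difference was 1.18-fold (log2 0.24, SE 0.05, limma adjusted p = 0.0206), and it no longer passed once wild type replicate 1 (adjusted p = 0.0588) or 2 (0.072), or FOG-2 Rb- replicate 2 (0.0731) or 3 (0.0722), was left out, or with the replicate number as a block (0.0507). On the log2 scale, the difference was -0.07 (adjusted p = 0.339) for the histone-binding chaperone gene Rbbp4 and -0.04 (0.633) for Rbbp7; for Mbd2 it was -0.07 (0.391), for Gatad2b -0.04 (0.633), for Cdk2ap2 0.14 (0.236) and for the mainly neural remodeller gene Chd5 0.00 (0.975), all by limma.

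**Figure D2:**
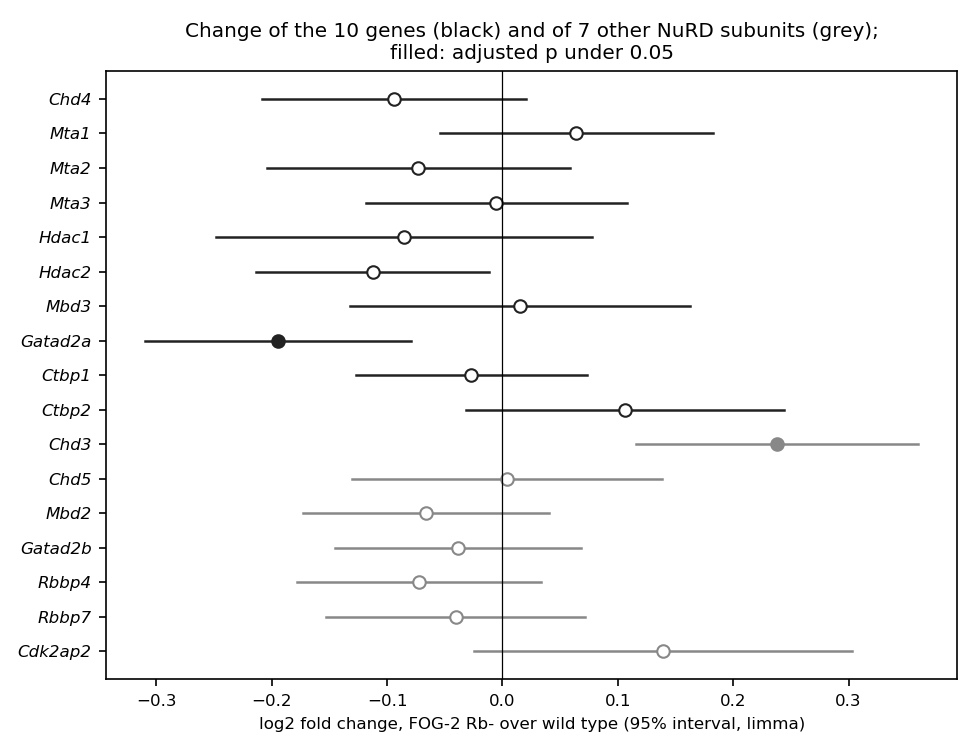
Log2 fold change, FOG-2 Rb- over wild type, with its 95% interval from limma, for the 10 genes (black) and the 7 other measured NuRD subunits (grey); filled points passed an adjusted p of 0.05. Gatad2a (-0.19) and Chd3 (0.24) are the filled points, and all others lie between -0.11 and 0.14.

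Several NuRD subunits are encoded by related genes, as is CtBP, so the balance within 8 pairs of such genes was compared as the difference of 2 log2 values in each array. The largest shift among the 8 pairs was that of Chd4 against Chd3, whose difference fell by 0.33 on the log2 scale (SD 0.09 in wild type and 0.07 in FOG-2 Rb-, n = 3 each), a ratio 1.26-fold lower. Relative to the wild type mean, this difference was 0.10, -0.01 and -0.08 in wild type and -0.25, -0.37 and -0.37 in FOG-2 Rb- replicates, without overlap. Gatad2a against Gatad2b shifted by -0.16, Ctbp1 against Ctbp2 by -0.13 and Mta1 against Mta2 by 0.14, also without overlap. Of single rows 35.6% lay without overlap, and the share over pairs of rows was not computed. The Mta genes each enter more than 1 pair, so the pairs are not independent. Mbd3 against Mbd2 shifted by 0.08, Mta1 against Mta3 by 0.07, Mta2 against Mta3 by -0.07 and Hdac1 against Hdac2 by 0.03, and in these the genotypes overlapped. For the 4 pairs without overlap the two-sided exact permutation test gave p = 0.1, the smallest that 3 arrays against 3 allow, and adjusted p = 0.2 over the 8 pairs, so no shift could pass this test, which makes no assumption on the form of the spread, with 3 arrays a genotype.

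**Figure D3:**
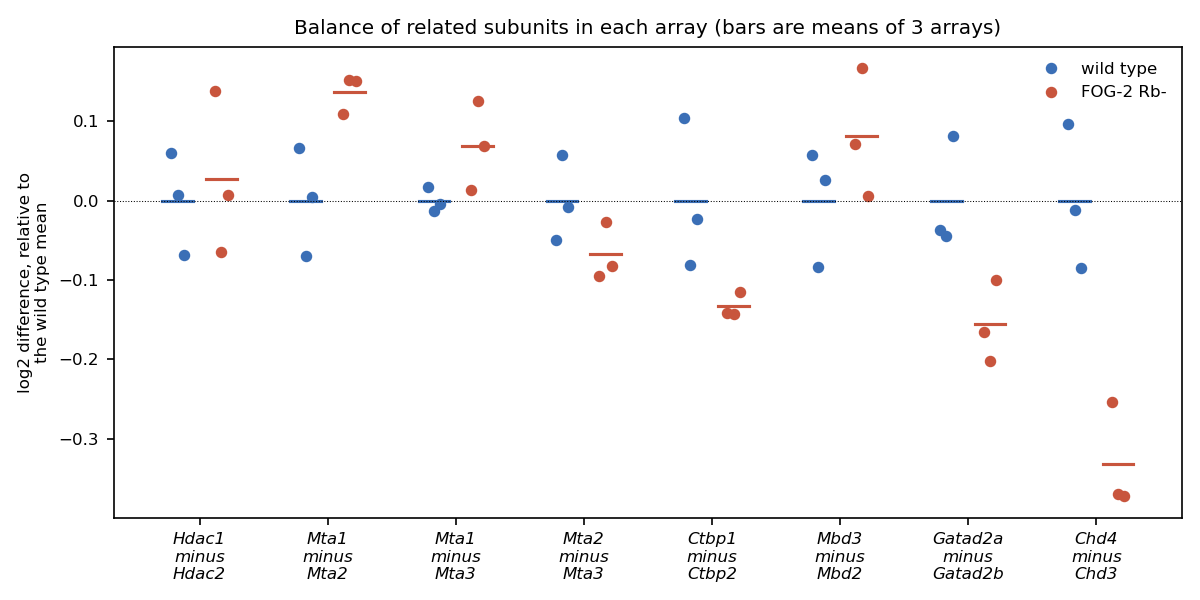
Difference of log2 values of related subunits in each wild type (blue) and FOG-2 Rb- (red) array, relative to the wild type mean of that pair; bars are means of 3 arrays. The Chd4 minus Chd3 difference lies at -0.25 to -0.37 in the FOG-2 Rb- arrays, below all wild type arrays, while the Hdac1 minus Hdac2 difference overlaps.

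Several of the factors that bring NuRD or CtBP to genes differed between the genotypes. Zfpm2, the targeted gene, measured 9.76, 9.65 and 9.64 in wild type and 9.40, 9.39 and 9.40 in FOG-2 Rb- replicates, a fall of 1.22-fold (limma adjusted p = 0.00913); since the allele alters the protein, this level does not check the labels. Zfpm1, which encodes FOG-1, measured 7.11, 7.16 and 7.04 in wild type and 7.59, 7.54 and 7.56 in FOG-2 Rb- replicates, a rise of 1.38-fold (limma adjusted p = 0.0013). The genotypes did not overlap for either FOG gene, and the changes ran in opposite directions. Of the 14 NuRD recruiters, FOG genes included, 5 rose and 2 fell. That is 50%, against 18% of all rows and 31.4% of rows at or above the median level. Their median change was 0.03 on the log2 scale. Bcl11b, a zinc finger repressor of T cell and neural development, fell 1.41-fold from a mean log2 level of 5.18 to 4.68. Both means lay below the median row of the table (5.69), so the size of this fall is uncertain. The Ikaros family gene Ikzf2 rose 1.3-fold and the repressor gene Bcl6 1.25-fold. The Ikzf2 call was lost in 5 of the 13 alternatives (highest adjusted p = 0.097, in the ordinary 2-group test). That of Bcl11b, a dim row, was lost in 1 of the 12 alternatives that kept it (0.0508, in the same test). Leaving out any 1 array lowered the 5 rises to 2 or 3, except wild type replicate 3, which left 5; FOG-2 Rb- replicate 1 was the array whose removal left 3.

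Of 21 measured partners of CtBP, 6 rose and 5 fell. That is 52.4%, against 18% of all rows and 31.4% of rows at or above the median level. Their median change was -0.04 on the log2 scale. Klf8, a Krüppel-like repressor, measured 5.72, 6.22 and 6.13 in wild type and 4.40, 4.43 and 4.44 in FOG-2 Rb- replicates, a fall of 3.04-fold (limma adjusted p = 0.000288). Its FOG-2 Rb- values lay below the median row of the table, and no measure of background was used here, so the size of the fall is uncertain. Satb1, a chromatin organiser, measured 5.74, 6.07 and 5.89 in wild type and 7.10, 7.14 and 6.82 in FOG-2 Rb- replicates, a rise of 2.18-fold (limma adjusted p = 0.000916). Mecom, which encodes the EVI1 and PRDM3 proteins, fell 1.68-fold, and Lcor, a co-repressor of ligand-bound nuclear receptors, fell 1.58-fold. These 4 calls held in every alternative in which the gene was tested. The 6 rises of the list became 3 without FOG-2 Rb- replicate 3.

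Other co-repressor genes gave mixed results. The share that passed was 22.2% for other deacetylases, 22.7% for Sin3, CoREST and NCoR subunits and 14.3% for other CHD remodellers. Over all rows it was 18%, and over rows at or above the median level, where most of these genes lie, it was 31.4%. Of the 9 other histone deacetylase genes, the class IIa genes Hdac7 and Hdac9 differed, Hdac7 1.19-fold higher (limma adjusted p = 0.0106) and Hdac9 1.38-fold lower (limma adjusted p = 0.00913), and 7 did not pass; Hdac9, near the median row of the table, was lost in the ordinary 2-group test (adjusted p = 0.0507), and without dim rows 2 of the list were higher. Of 22 measured subunits of the Sin3, CoREST and NCoR complexes, which also carry class I deacetylases, 2 rose and 3 fell. Sap30, a Sin3 subunit, fell 1.62-fold (log2 fold change -0.70, SE 0.06, limma adjusted p = 0.000296), with FOG-2 Rb- arrays at 6.98, 6.97 and 6.98 against 7.59, 7.69 and 7.75 in wild type. Ing1, another Sin3 subunit, fell 1.27-fold, the NCoR subunit gene Tbl1xr1 fell 1.21-fold, a call lost in 5 alternatives (highest adjusted p = 0.063), and Phf21a, of the CoREST complex, rose 1.24-fold. The count of rises was 1 in fits that lacked replicate 1 or 2 of the wild type, or replicate 1 or 3 of FOG-2 Rb-, and 1 with the replicate block; it was 6 with the expression-dependent prior, 6 without dim rows and 4 in the ordinary 2-group test. Of the 7 other CHD remodellers only Chd1 passed, 1.14-fold lower (limma adjusted p = 0.0309), and it was lost with the replicate block, with centred arrays and without any 1 array except wild type replicate 1, while the expression-dependent prior and the fit without dim rows called 2 lower. Of 6 measured genes with a methyl-CpG binding domain, 0 passed in limma, where 4 had an unadjusted p under 0.05 and the smallest was that of Mbd4 (log2 fold change -0.37, adjusted p = 0.0748); the ordinary 2-group test called 1 lower, limma with an expression-dependent prior 2 and the fit without dim rows 3.

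**Figure D4:**
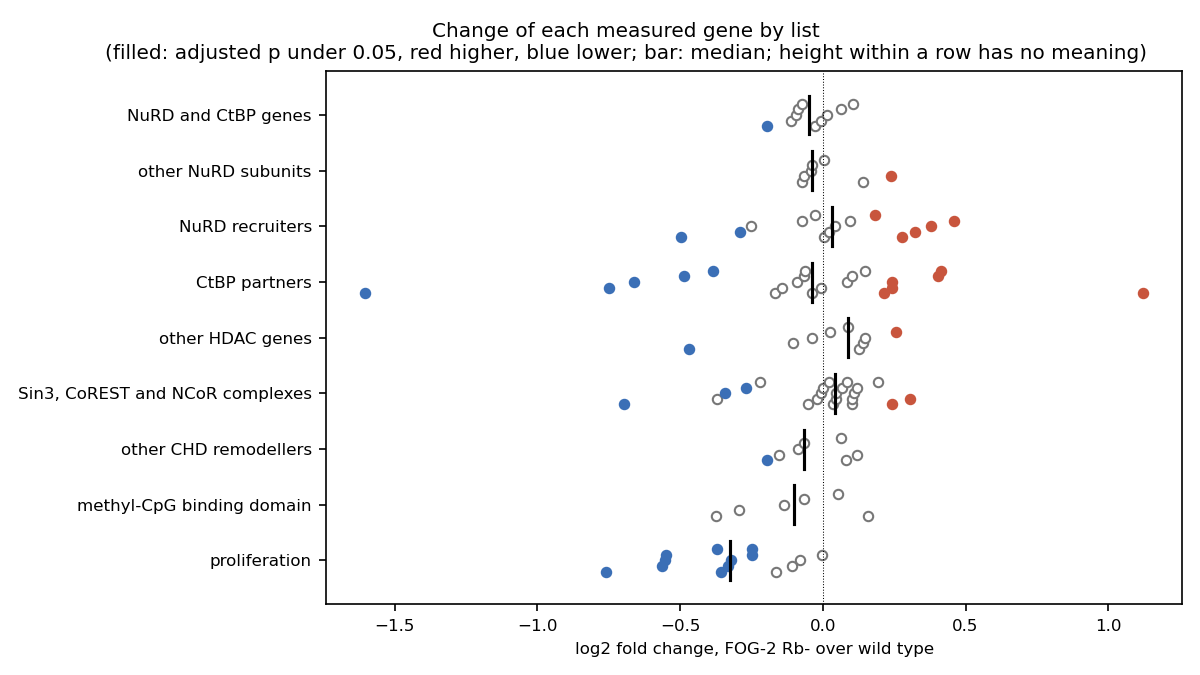
Log2 fold change, FOG-2 Rb- over wild type, of every measured gene of each list, 1 point a gene; filled points passed an adjusted p of 0.05 (red higher, blue lower) and black bars are list medians. The 10 NuRD and CtBP genes lie between -0.19 and 0.11, whereas the partners of CtBP reach from -1.60 (Klf8) to 1.12 (Satb1).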

How the data were processed

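The authors deposited log2 expression values for 23748 genes in 6 arrays, made with RMA (background correction, normalization between arrays and summary over probes) and Partek, per the submitters' processing notes; for versions, probe definition and build, nothing is given in the sources used. Per the file headers, the authors also deposited a p-value, a ratio and a signed fold change score of mutant over wild type for each gene; on the log2 scale that ratio and the group means' difference lay within 7.18e-06 of each other, which settles the scale. No scanner file was used, so neither array background nor scan batches could be looked at. Rows were named from the platform annotation, which gives 1 symbol for 23111 rows and none for 637; of 187 different list genes, 173 were matched, and rows without a symbol stayed unnamed.

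Genotype was the only term of the fit, made with lmFit and eBayes of limma 3.58.1 under R 4.3.3 on all 6 arrays (two-sided, Benjamini-Hochberg over 23748 rows, threshold 0.05). Unless named otherwise, adjusted p-values of genes come from this fit. A fold change divides FOG-2 Rb- by wild type, and a fold lower is its inverse; changes of rows near the array's background are understated. The number of arrays limits the precision. Alternatives left out each array, added a replicate block, changed the variance prior, weighted arrays, centred or normalized them anew, left out dim rows or used an ordinary 2-group test. The changed prior was both expression-dependent and robust, and is also called the expression-dependent prior here. The genes and lists were chosen with earlier results of these data known. Named are the 10 genes, the other NuRD subunits, Zfpm1 and Zfpm2, and in each other list up to 4 of the genes that passed, by size of change, or the gene of smallest p where none did. Of the cell type lists, epithelium had 0 of 8 genes past the threshold, neural 0 of 6, endothelium 1 of 8 (Kdr, 5.18-fold higher), macrophage and blood 2 of 8 (Cd68 and Csf1r, 1.62-fold and 1.26-fold higher) and muscle 1 of 10 (Des, 1.32-fold higher); Ptprc and Pecam1 had adjusted p of 0.907 and 0.6. The share of all rows past the threshold was 18%. In the proliferation list the largest falls were those of Mcm5 (1.69-fold), Mcm6 (1.48-fold), Mcm2 (1.47-fold) and Mcm3 (1.46-fold).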

Additional observations from a re-analysis of the deposited data

How the results depend on the processing

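Over the 13 alternatives, the count of the 10 NuRD and CtBP genes that rose stayed at 0. The count that fell, 1 in the fit reported, was 0 in each of the 6 fits with 1 array left out, 0 with the replicate block and 0 with arrays centred on their medians. It was 2 with limma's expression-dependent robust prior, 2 without dim rows and 2 in the ordinary 2-group test, where Hdac2 joined Gatad2a, and 1 with array weights or new quantile normalization. The cause of these shifts was not tested. Counts over all rows were 1492 to 1856 higher and 1313 to 1668 lower with 1 array left out, against 2241 and 2040. The part of the smaller number of arrays in these lower counts was not tested. The replicate block gave 1681 higher and 1500 lower. Same-numbered arrays deviated together with correlations of 0.0314, 0.0176 and 0.00208 across genes, and not every array correlated best with its own number. Values this small cannot decide whether the numbers pair the samples. The sign of the Mta3 and of the Mbd3 change differed in 3 alternatives each and the other 8 genes kept theirs. The pairs were run in 8 of the alternatives (each array left out, centring and new quantile normalization), where the sign of the Hdac1 against Hdac2 shift differed in 2 and the other 7 pairs kept theirs.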
